A study of Mus musculus with 9 samples.

Results

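The tetraspanins of the B cell surface are described here as 9 genes: Cd9, Cd37, Cd53, Cd63, Cd81, Cd82, Cd151, Tspan31 and Tspan32. They were chosen by name from the 22178 gene symbols measured by RNA-seq in mouse B cells, and all 9 were among the 11099 genes that entered the tests. Tetraspanins are small proteins that cross the membrane several times and carry a short and a long extracellular loop. They have no enzymatic activity of their own and act by binding other membrane proteins, such as integrins, immunoglobulin superfamily receptors and proteases, and by gathering them into membrane patches called tetraspanin-enriched microdomains. In B cells CD81 is a member of the coreceptor complex that tunes signals of the B cell receptor, and CD9 is used as a surface marker of marginal zone B cells, B-1 cells and plasma cells.

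The study compared 3 groups of B cells with 3 libraries each, all on a backcrossed C57BL/6 background. B2 cells, the conventional B cells, were splenic, and their mice carry VH12B1-8/Vk4 as strain label. B1 cells, which populate body cavities, were peritoneal, and for their mice the strain is given as B1-8VH12/Vk4. B2B1 cells share that site and that strain label. In them a change of B cell receptor had been induced about 30 days before isolation, by means that the sources used here do not give. The labels call the material B cells and do not give the markers used to isolate them. Tissue, strain label and cell type change together between B2 and the peritoneal groups, so these factors cannot be told apart in either comparison with B2.

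Levels are in TPM, the share of a gene among a library's transcripts after correction for transcript length, scaled to a fixed total per library. TPM keep no read counts, so the depth of the libraries is unknown, and the table's columns add up to 894515 to 943043 TPM. No statement in the labels ties the libraries of a group to separate mice, so the p-values measure the spread between these libraries only. Differences are given as the difference of mean log2(TPM + 1) with its standard error (SE), which understates the change of low genes, and the test was limma with p-values adjusted over all 11099 genes tested. A gene is called changed at an adjusted p under 0.05. Both comparisons with B2 use the same B2 libraries, so they are not independent of each other. Over all tested genes the median difference was -0.14 for B1 against B2, -0.19 for B2B1 against B2 and -0.06 for B2B1 against B1. Scaling libraries by the median of ratios moved these medians to 0.01, 0.02 and 0.01, and small differences from B2 below are therefore also given relative to the median. The X-inactivation transcript Xist was high (180.4 to 298.1 TPM) in 6 libraries. The other libraries, the second of B2 and the first and second of B2B1, held the Y-linked Ddx3y at 56.9 to 75.3 TPM. B2B1 library 1 and B1 library 2 lay farthest from the other libraries of their groups, with median absolute differences of 0.13 and 0.16 on the log2 scale, against 0.086 to 0.13 for the other libraries. The 8 B cell markers summed to 9022 to 11257 TPM in every library, but the single markers were not all level. Against B2, 1 was called higher and 4 lower in B1, and 5 lower in B2B1. In B2B1 against B1, 4 were called lower. Their median log2 differences were -0.52, -0.93 and -0.28. In the same order 18.0%, 21.0% and 6.93% of all tested genes rose, and 33.9%, 42.0% and 12.1% fell.

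The stretches of 250 bases just before the annotated RefSeq start of 4 members are shown first, as examples of different levels and directions among the members. Cd9 and Cd63 were low in B2 cells and high in both peritoneal groups, Cd81 was highest in B2 cells, and Cd37 was the most abundant member in every group. They are taken from RefSeq on GRCm38.p6, written 5′ to 3′ on the gene's strand. Capitals mark a GC box (GGGCGG) or the core of a PU.1 site (GAGGAA), each on either strand. PU.1 is a transcription factor of B cells and macrophages, and a GC box can bind factors of the Sp family.
Cd9 promoter, chr6:125494761-125495010, minus strand: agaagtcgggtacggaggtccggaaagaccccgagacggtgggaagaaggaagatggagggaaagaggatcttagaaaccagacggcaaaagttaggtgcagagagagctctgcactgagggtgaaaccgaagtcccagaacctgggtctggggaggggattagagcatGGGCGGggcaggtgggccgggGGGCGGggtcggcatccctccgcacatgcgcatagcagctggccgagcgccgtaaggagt
Cd63 promoter, chr10:128909095-128909344, plus strand: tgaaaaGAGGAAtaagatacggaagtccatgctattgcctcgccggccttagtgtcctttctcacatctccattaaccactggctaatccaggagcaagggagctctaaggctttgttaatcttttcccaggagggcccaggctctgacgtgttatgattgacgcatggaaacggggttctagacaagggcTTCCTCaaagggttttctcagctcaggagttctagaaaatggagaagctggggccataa
Cd81 promoter, chr7:143052500-143052749, plus strand: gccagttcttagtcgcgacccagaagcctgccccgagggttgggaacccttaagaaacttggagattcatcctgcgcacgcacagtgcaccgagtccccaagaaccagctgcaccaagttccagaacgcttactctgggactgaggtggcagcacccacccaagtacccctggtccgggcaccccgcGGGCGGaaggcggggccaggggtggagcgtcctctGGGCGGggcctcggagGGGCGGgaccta
Cd37 promoter, chr7:45238840-45239089, minus strand: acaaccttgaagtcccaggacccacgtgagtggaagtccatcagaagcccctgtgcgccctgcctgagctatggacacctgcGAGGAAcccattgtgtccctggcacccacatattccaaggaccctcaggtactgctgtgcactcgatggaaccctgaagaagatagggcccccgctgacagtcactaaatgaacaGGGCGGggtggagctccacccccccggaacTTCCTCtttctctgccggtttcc
The Cd9 stretch held GC boxes that began 81 and 60 bases before the start and no GAGGAA. The Cd81 stretch held GC boxes at 63, 28 and 12 bases before the start and no GAGGAA. The Cd63 stretch held no GC box, and its GAGGAA matches lay 244 and 59 bases before the start. The Cd37 stretch held both motifs, with a GC box at 53 bases and GAGGAA at 168 and 23 bases. G and C made up 61.6% of the bases for Cd9, 48.8% for Cd63, 65.6% for Cd81 and 58.8% for Cd37, against a median of 52.4% over all 32851 RefSeq promoters. A GC box stood in 32.7% and GAGGAA in 23.3% of all these promoters over the same length, so matches of either kind are common. Cd9 and Cd63, which moved together across the groups, shared neither of these motifs in this window. The Cd63 and Cd37 stretches lie inside the gene spans annotated in GENCODE M21. For Cd63 that span begins well upstream of the stretch shown, at chr10:128900989, so the stretch precedes an internal start of that annotation. A match describes the letters only and is not evidence of binding.

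Cd9, a partner of integrins and of the immunoglobulin superfamily protein encoded by Igsf8, had the smallest adjusted p of the members in all 3 comparisons. The gene lies at chr6:125460266-125494791 on the minus strand (GENCODE M21, GRCm38) and codes for protein. Cd9 stood at 15.02, 15.5 and 16.04 TPM in the B2 libraries. In B1 libraries Cd9 stood at 139, 141 and 155 TPM, and in B2B1 libraries at 419, 336 and 334 TPM. Every B2B1 library lay above every B1 library, and every B1 library lay far above every B2 library. The group means were 15.5 ± 0.507 TPM for B2, 145 ± 8.57 TPM for B1 and 363 ± 48.5 TPM for B2B1 (SD, n = 3). Mean Cd9 was thus 9.32 times the B2 mean in B1 cells and 23.4 times in B2B1 cells. The log2 difference was 3.14 (SE 0.0919, limma adjusted p = 3.2e-08) for B1 against B2 and 4.45 (adjusted p = 5.01e-09) for B2B1 against B2. B2B1 cells also exceeded B1 cells, by 1.31 on the log2 scale (adjusted p = 8.62e-05), a ratio of means of 2.51. By mean TPM, Cd9 ranked 6815 among all genes in B2 cells, 804 in B1 cells and 297 in B2B1 cells. Only 52 of the tested genes had a higher log2 difference than Cd9 in B2B1 against B2, and 117 in B1 against B2.

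Cd63, a tetraspanin of late endosomes, lysosomes and exosomes that also reaches the cell surface, was almost undetected in B2 cells and present in all peritoneal libraries. It lies at chr10:128900989-128912822 on the plus strand. Cd63 was 0.333 and 0.432 TPM in B2 libraries 1 and 2 and was listed at 0 in B2 library 3. In B1 libraries Cd63 stood at 21.2, 10.02 and 31.3 TPM, and in B2B1 libraries at 81.5, 53.2 and 48.0 TPM. The 3 groups did not overlap, but the spread within the peritoneal groups was wide, with an SD of 10.6 TPM around 20.9 TPM in B1 and of 18.0 TPM around 60.9 TPM in B2B1. The log2 difference from B2 was 4.01 (SE 0.364, limma adjusted p = 2.67e-05) in B1 and 5.60 (adjusted p = 2.68e-06) in B2B1. For the same contrast of B2B1 with B2, only 17 tested genes had a higher log2 difference than Cd63. B2B1 exceeded B1 by 1.60 on the log2 scale (adjusted p = 0.0173). That last call for Cd63 was lost without B2B1 library 1 (1.37, adjusted p = 0.0557), but it was kept when B1 library 2 was left out as well. With library sex as a covariate the difference was 1.34 (adjusted p = 0.115) and was not called. A pseudocount of 0.1 TPM also ended the call (1.65, adjusted p = 0.102), as did a fit to the B2B1 and B1 libraries alone (adjusted p = 0.0544).

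**Figure D1:**
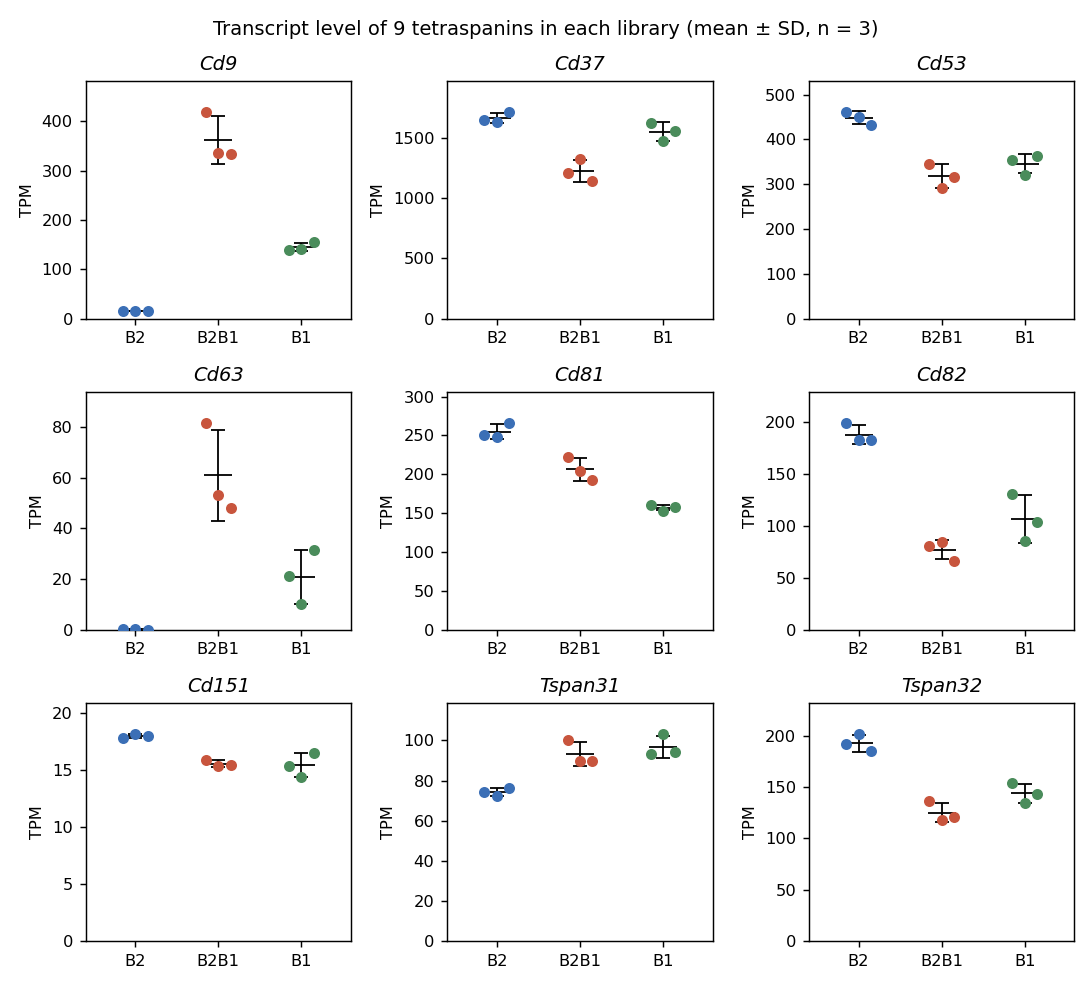
Transcript level (TPM, vertical axis, from 0) of the 9 tetraspanins in the 3 libraries of B2, B2B1 and B1 cells, 1 panel per gene. Each point is a library, and the bars give the mean and SD of 3 libraries. Cd9 and Cd63 rise from B2 through B1 to B2B1, Cd81 and Cd82 are highest in B2, and the group means of Cd151 lie between 15.4 and 17.9 TPM.

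Macrophages express Cd9 and Cd63 strongly, and macrophage markers also differed between the groups. Of 12 listed macrophage markers 11 were in the table and 10 reached 1 TPM in at least 1 library. Their summed level was 3.88 to 5.66 TPM in B2, 131 to 171 TPM in B1 and 161 to 389 TPM in B2B1. Most of the sum in B1 came from Itgam, a surface integrin that peritoneal B-1 cells also carry, at 72.8 to 124 TPM. Emr1, which encodes the macrophage protein F4/80, stood at 0.432, 0.272 and 0.448 TPM in B2, at 19.7, 13.6 and 20.9 TPM in B1, and at 52.0, 39.9 and 40.1 TPM in B2B1. Limma called 3 of the 7 tested macrophage markers higher in B1 than in B2, 7 of 7 higher in B2B1 than in B2, and 2 of 7, Emr1 and C1qa, higher in B2B1 than in B1. The last call of C1qa was lost under 15 of 20 alternative settings. Of all tested genes 18.0%, 21.0% and 6.93% rose in these comparisons. Csf1r, Cd68, Timd4, Marco and Fcgr1 were not tested, being absent or under a mean of 1 TPM over all libraries. Markers near 0 in B2 could pass that filter only through the peritoneal groups, so the counts against B2 are in part set by it. B2B1 library 1 had the highest Lyz2 (181 TPM) and also the highest Cd9 and Cd63. In B1 library 1 the markers differed among themselves. Lyz2 stood there at 1.22 TPM, within the B2 range of 0.424 to 1.52 TPM, while Emr1 (19.7 TPM), Mrc1 (3.15 TPM, against at most 0.0710 TPM in B2) and Itgam (124 TPM) were far above B2, and the summed level was 149 TPM. Without B2B1 library 1 the log2 difference of Cd9 between B2B1 and B1 was 1.21 (limma adjusted p = 9.67e-05). The part of macrophage RNA in the differences of Cd9 and Cd63 was not tested. In bulk libraries more cells of a type and more RNA per cell cannot be told apart.

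Platelets also carry abundant CD9 and CD63, and platelet markers were low throughout. The 7 platelet and megakaryocyte markers summed to 6.46 TPM in B2B1 library 1, which also had the highest Cd9 and Cd63. In the other libraries they summed to 0.871 to 2.16 TPM. Gp1bb, Gp6 and Treml1 were listed at 0 in all 9. Of the 10 markers of mesothelium and stroma, Msln, Upk3b, Krt19 and Wt1 were at 0 in all libraries, and their sum reached 33.7 TPM in B1, nearly all of it from Krt18. The 5 plasma cell markers, another class that carries CD9, summed to 155 to 177 TPM in B2, 209.7 to 257 TPM in B1 and 246 to 300.5 TPM in B2B1. Among them Prdm1, a regulator of plasma cell formation, rose from 0.471 to 0.764 TPM in B2 to 10.9 to 23.99 TPM in B1 and 6.50 to 20.8 TPM in B2B1, and Sdc1 averaged at most 1.87 TPM in any group. Markers that were higher in B2 were those of dendritic cells (18.3 to 20.2 TPM, against 1.84 to 2.45 TPM in the peritoneal libraries) and of NK cells (12.4 to 16.9 against 0.781 to 1.81 TPM, mainly Prf1). The part of these cell types in the members' differences was not tested.

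**Figure D2:**
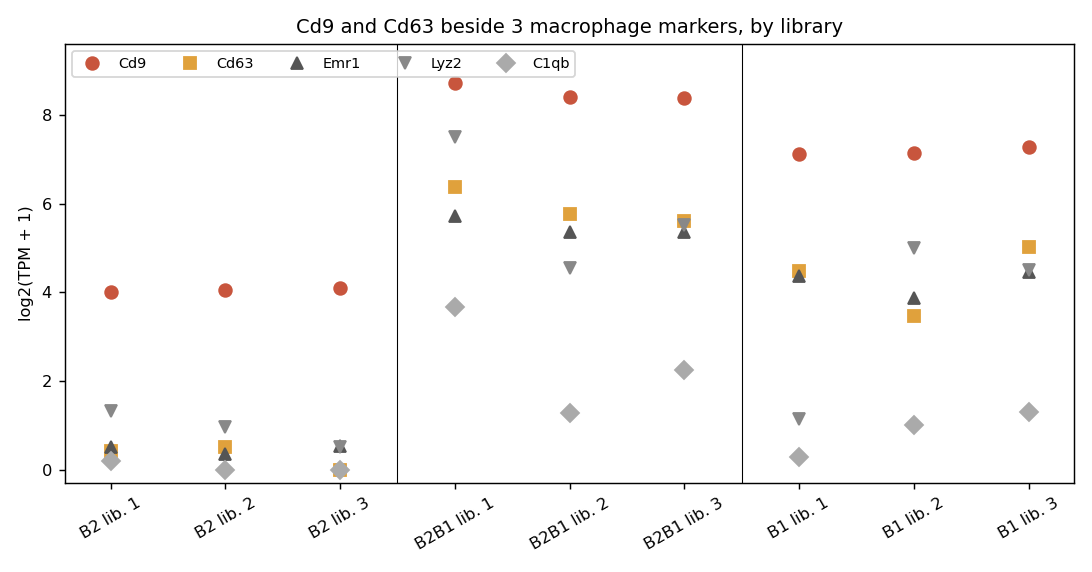
Level of Cd9, Cd63 and 3 macrophage markers as log2(TPM + 1) on the vertical axis in each of the 9 libraries, ordered by group. Emr1 goes from 0.272 to 0.448 TPM in B2 through 13.6 to 20.9 TPM in B1 to 39.9 to 52.0 TPM in B2B1, while Lyz2 ranges from 1.22 to 30.9 TPM within B1.

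Cd81, the tetraspanin of the B cell coreceptor complex, behaved differently from Cd9. The gene lies at chr7:143052739-143067934 on the plus strand. Cd81 stood at 251, 248 and 266 TPM in B2, at 160.2, 153 and 158 TPM in B1, and at 222, 205 and 193 TPM in B2B1. The 3 groups did not overlap, with B2B1 between the others. Against B2, Cd81 fell by 0.69 on the log2 scale in B1 (SE 0.0620, limma adjusted p = 2.44e-05) and by 0.30 in B2B1 (adjusted p = 0.00231). Relative to the median of all genes these differences were -0.56 and -0.11, and with median-of-ratios scaling the second was -0.08 (adjusted p = 0.353) and was not called. B2B1 exceeded B1 by 0.39 (adjusted p = 0.00348). Cd9 therefore stood at 0.0610 ± 0.00150 of the Cd81 level in B2, at 0.921 ± 0.0566 in B1 and at 1.75 ± 0.127 in B2B1 (ratio of TPM, SD, n = 3).

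Among genes whose products bind CD81 or share its complex, Cr2, which encodes a complement receptor, was 569 to 654 TPM in B2, 5.18 to 9.68 TPM in B1 and 1.58 to 3.89 TPM in B2B1. Igsf8, which encodes a direct partner of CD9 and CD81, went the other way. Igsf8 stood at 12.01 ± 0.601 TPM for B2, 38.96 ± 1.71 TPM for B1 and 25.7 ± 4.62 TPM for B2B1, with log2 differences of 1.62 (limma adjusted p = 6.54e-06) and 1.02 (adjusted p = 7.43e-05). Ifitm2, of a family of small membrane proteins that associate with CD81, was listed at 0 in 2 B2 libraries and reached 7.68 to 8.51 TPM in B2B1. Of the 7 listed coreceptor, Igsf8-like and Ifitm genes 6 were tested: 2 rose and 2 fell in B1 against B2, and 3 rose and 2 fell in B2B1 against B2. In B2B1 against B1, 2 rose and 3 fell. Their median log2 differences were -0.19, 0.55 and 0.11. In the same order 18.0%, 21.0% and 6.93% of all tested genes rose, and 33.9%, 42.0% and 12.1% fell. The rises in B2B1 against B1 were those of Ifitm1 and Ifitm2, lost under 6 and 2 of 20 settings. Both were lost with a pseudocount of 0.1 TPM (limma adjusted p = 0.0654 and 0.157) and with library sex as a covariate (adjusted p = 0.0819 and 0.0566).

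Cd37, a leukocyte tetraspanin with roles in B cell integrin signalling and antibody responses, was the most abundant member in every group. It lies at chr7:45233632-45239115 on the minus strand. Cd37 stood at 1648, 1633 and 1716 TPM in B2, at 1629, 1475 and 1559 TPM in B1, and at 1212, 1324 and 1139.6 TPM in B2B1. It ranked 94 among all genes in B2, 104 in B1 and 114 in B2B1, and made up 58.3%, 60.1% and 49.3% of the members' summed TPM. The B2B1 libraries were the lowest 3. Cd37 fell by 0.45 on the log2 scale in B2B1 against B2 (SE 0.0688, limma adjusted p = 0.000459) and by 0.34 against B1 (adjusted p = 0.00976). Relative to the median of all genes the first was -0.25, and with median-of-ratios scaling it was -0.22 (adjusted p = 0.0434). B1 against B2 was -0.10 (adjusted p = 0.249) and not called. That value had no stable sign: median-of-ratios scaling gave 0.06 (adjusted p = 0.587) and quantile normalization gave -0.26 (adjusted p = 0.0213).

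Cd53, the leukocyte tetraspanin that binds CD45, was lower in both peritoneal groups. It lies at chr3:106759921-106790149 on the minus strand. Cd53 stood at 461, 449.9 and 432 TPM in B2, at 354, 321 and 363 TPM in B1, and at 346, 292 and 317 TPM in B2B1. B2 lay above both other groups, which overlapped. The log2 difference was -0.37 (SE 0.0745, limma adjusted p = 0.00278) for B1 and -0.49 (adjusted p = 0.000392) for B2B1 against B2, or -0.24 and -0.30 relative to the median of all genes. B2B1 against B1 was -0.12 (adjusted p = 0.282). Ptprc, which encodes CD45, was 699 ± 31.2 TPM in B2, 350.1 ± 25.7 TPM in B1 and 311 ± 39.8 TPM in B2B1, lower in both peritoneal groups (log2 differences -0.996 and -1.17, adjusted p = 3.47e-05 and 9.19e-06). Prkcb, the gene of a protein kinase C that tetraspanins can bind, fell by 0.62 in B2B1 against B2 (adjusted p = 0.000156). Of the 6 tested genes among the 9 other listed partners, 2 rose and 2 fell in B1 and 1 rose and 4 fell in B2B1, each against B2, and 1 fell in B2B1 against B1. Their median log2 differences were -0.60, -0.90 and -0.30. In the same order 18.0%, 21.0% and 6.93% of all tested genes rose, and 33.9%, 42.0% and 12.1% fell. The fall of Socs3 in B2B1 against B2 was lost under 17 of 21 settings, and the rises of Ms4a1 in B1 and of Il6ra in B2B1 were lost under 5 and 1.

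Cd82, a tetraspanin that restrains cell movement and associates with integrins, had the lowest log2 difference of the members in each of the 3 comparisons. It lies at chr2:93419111-93463140 on the minus strand. Cd82 stood at 199, 183 and 182 TPM in B2, at 131, 85.3 and 104 TPM in B1, and at 80.4, 84.3 and 66.6 TPM in B2B1. No peritoneal library reached the B2 range. The log2 difference was -0.83 (SE 0.147, limma adjusted p = 0.00137) for B1 and -1.28 (adjusted p = 7.63e-05) for B2B1 against B2. The highest B2B1 library (84.3 TPM) lay just under the lowest B1 library (85.3 TPM), and B2B1 against B1 was -0.45 (adjusted p = 0.0632). B1 library 2 decided that last call, since without it the difference was -0.60 (adjusted p = 0.0134).

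Tspan32, a tetraspanin of blood cells that limits T cell proliferation, lies at chr7:143005046-143019644 on the plus strand. Its end is 33094 bases from the start of Cd81 with no annotated gene lying wholly between them. Genes that overlap Tspan32 or Cd81 and may reach into this gap, such as Tspan32os and R74862, were not counted. Tspan32 stood at 192, 202 and 185 TPM in B2, at 154, 134 and 144 TPM in B1, and at 136, 118 and 121 TPM in B2B1. It fell by 0.42 on the log2 scale in B1 (SE 0.0743, limma adjusted p = 0.00136) and by 0.62 in B2B1 (adjusted p = 9.92e-05) against B2. Relative to the median of all genes these differences were -0.29 and -0.43, and with median-of-ratios scaling -0.26 (adjusted p = 0.0159) and -0.39 (adjusted p = 0.00162). The difference of B2B1 from B1 was -0.20 (adjusted p = 0.0954), with overlapping libraries. The neighbours were thus ordered differently: B1 cells were lowest for Cd81 and B2B1 cells were lowest by mean for Tspan32.

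Cd151, the partner of laminin-binding integrins, was among the lowest members, with group means of 15.4 to 17.9 TPM. It lies at chr7:141467392-141471473 on the plus strand. Cd151 stood at 17.7, 18.1 and 17.9 TPM in B2, at 15.3, 14.4 and 16.5 TPM in B1, and at 15.9, 15.3 and 15.4 TPM in B2B1. It was called lower than in B2 in B1 (-0.21, SE 0.0718, limma adjusted p = 0.0358) and in B2B1 (-0.20, adjusted p = 0.0382). Relative to the median of all genes these differences were -0.07 and -0.0033. The calls were lost under 12 and 10 of 21 alternative settings, and with median-of-ratios scaling the B2B1 value was 0.020 (adjusted p = 0.843). B2B1 and B1 overlapped, with a difference of 0.01 (adjusted p = 0.92).

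Tspan31, a broadly expressed tetraspanin known from a region amplified in sarcomas, was the only member apart from Cd9 and Cd63 that was called higher in the peritoneal groups than in B2. It lies at chr10:127067280-127070264 on the minus strand. Tspan31 stood at 74.4, 72.3 and 76.5 TPM in B2, at 93.1, 103 and 94.3 TPM in B1, and at 100.2, 89.6 and 89.8 TPM in B2B1. Every peritoneal library lay above every B2 library, and the 2 peritoneal groups overlapped. The log2 difference was 0.37 (SE 0.0663, limma adjusted p = 0.0014) for B1 and 0.32 (adjusted p = 0.00258) for B2B1 against B2, or 0.51 for both relative to the median of all genes. B2B1 against B1 was -0.06 (adjusted p = 0.595). Tspan31 overlaps Cdk4, a cell cycle kinase gene on the opposite strand, by 641 bases, and Cdk4 averaged 111 TPM in B2, 149 TPM in B1 and 169 TPM in B2B1. The library kit does not mark strand, so reads from the shared stretch cannot be told apart. The annotation also places genes on the opposite strand over parts of Cd9, Cd37, Cd81, Cd82, Cd151 and Tspan32. Of these partners Tead2, R74862 and Gm10804 were in the table, each at no more than 1.02 TPM in any library.

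Counted together, 3 members rose (Cd9, Cd63 and Tspan31) and 5 fell (Cd53, Cd81, Cd82, Cd151 and Tspan32) in B1 against B2. Of all tested genes 18.0% rose and 33.9% fell in that comparison. In B2B1 against B2 the same 3 rose and 6 fell, the former 5 and Cd37, where 21.0% of all tested genes rose and 42.0% fell. In both comparisons the libraries of the groups did not overlap for any of the 9 members, which held for 61.7% and 72.2% of all tested genes. In B2B1 against B1, Cd9, Cd63 and Cd81 rose and Cd37 fell, where 6.93% of all tested genes rose and 12.1% fell. The libraries did not overlap for 5 members in that comparison, against 35.7% of all tested genes. The members' median log2 difference was -0.21, -0.30 and -0.06 in the 3 comparisons, beside -0.14, -0.19 and -0.06 over all genes. The split of calls over all genes depended on the scaling: it was 2003 higher and 3762 lower for B1 against B2, but 2843 and 2464 with median-of-ratios scaling and 2477 and 2867 with quantile normalization. For B2B1 against B2 it was 2332 and 4663, then 3494 and 3031, and 2973 and 3538. For B2B1 against B1 it was 769 and 1339, then 1087 and 894, and 912 and 983.

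**Figure D3:**
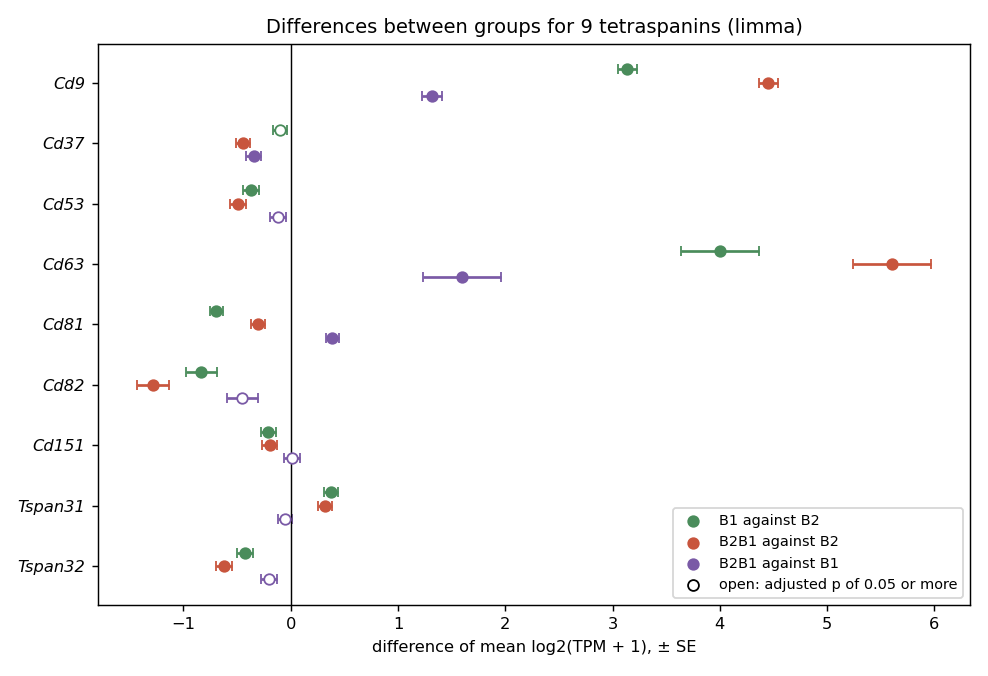
Difference of mean log2(TPM + 1) between groups (horizontal axis) with its SE for the 9 members in the 3 comparisons, from limma. Open circles mark an adjusted p of 0.05 or more. Cd9 and Cd63 lie between 1.31 and 5.60 in all 3 comparisons, and every other member lies between -1.28 and 0.39.

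In sum over the 9 members the level was 2857 ± 35.5 TPM in B2, 2586 ± 133 TPM in B1 and 2485 ± 147 TPM in B2B1 (SD, n = 3). The B2 libraries (2821 to 2892 TPM) lay above all peritoneal libraries, of which the highest reached 2696 TPM. Cd9 made up 0.544% of the sum in B2, 5.60% in B1 and 14.6% in B2B1, and Cd63 made up 0.00899%, 0.797% and 2.43%. In B2 cells the order by mean TPM ran Cd37, Cd53, Cd81, Tspan32, Cd82, Tspan31, Cd151, Cd9 and Cd63, where Tspan32 and Cd82 overlapped. In B1 cells it ran Cd37, Cd53, Cd81, Cd9, Tspan32, Cd82, Tspan31, Cd63 and Cd151. There the ranges of Cd81, Cd9 and Tspan32 overlapped with each other, and so did those of Cd82 and Tspan31, and of Cd63 and Cd151. In B2B1 cells Cd9 moved up to second, with libraries that overlapped those of Cd53, the next in order, followed by Cd81, Tspan32, Tspan31, Cd82, Cd63 and Cd151, of which Cd82 and Cd63 overlapped.

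The other tetraspanin genes gave a smaller total. Of 22 listed, all were in the table and 10 were tested, and they summed to 263 ± 15.5 TPM in B2, 375 ± 15.5 TPM in B1 and 333 ± 20.8 TPM in B2B1. The 9 members thus held 91.6%, 87.3% and 88.1% of all listed tetraspanin TPM. Tspan8, Tspan11, Tspan12 and Upk1b were listed at 0 in every library. In B1 against B2, Tspan14, Tspan17 and Upk1a rose and Tspan3, Tspan15 and Rom1 fell. In B2B1 against B2, Tspan14, Tspan17, Upk1a and Rom1 rose and Tspan3, Tspan13 and Tspan15 fell. In B2B1 against B1, Tspan2, Tspan3, Upk1a and Rom1 rose and Tspan13 fell. Their median log2 differences were -0.13, 0.19 and 0.10 in these comparisons. The calls of Rom1 in B1 against B2 and of Tspan2 and Tspan3 in B2B1 against B1 were lost under 10, 7 and 6 of 21 settings, among them the covariate for library sex (adjusted p = 0.0731, 0.101 and 0.13). That covariate also ended the calls of Upk1a and Tspan13 in B2B1 against B1 (adjusted p = 0.0511 and 0.0505), so that of the 5 genes called there Rom1 alone kept its call. Tspan2 and Tspan3 both lost theirs without B2B1 library 1, B1 library 1 or B1 library 3, and when only these groups were fitted. Rom1 in B2B1 against B2 was lost under 3 settings, and Tspan13 there was lost with median-of-ratios scaling (adjusted p = 0.0972). Tspan5 (8.22 TPM in B2, 11.3 in B1 and 8.65 in B2B1) was called in no comparison. In B1 against B2 it was called under 4 of 21 settings, lowest with library sex as a covariate (0.61, limma adjusted p = 0.00441). That covariate also gave a call in B2B1 against B1 (-0.74, adjusted p = 0.0202).

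Tspan14, Tspan15 and Tspan17 belong to the subgroup that escorts the protease ADAM10 to the surface, and they did not move together. The subgroup has further members, and this statement covers only the genes named. Tspan14 stood at 71.1 ± 3.24 TPM in B2, 177 ± 21.7 TPM in B1 and 159 ± 32.5 TPM in B2B1. Tspan17 stood at 7.37 ± 0.949, 30.1 ± 6.89 and 27.97 ± 3.36 TPM in the same order. Tspan15 fell, with 12.1 ± 2.72 TPM for B2, 1.72 ± 0.0630 TPM for B1 and 1.47 ± 0.144 TPM for B2B1, log2 differences of -2.24 and -2.38 (limma adjusted p = 4.8e-06 and 2.61e-06). Adam10 itself rose in both, with 62.1 ± 2.67 TPM for B2, 87.7 ± 10.9 TPM for B1 and 77.1 ± 1.999 TPM for B2B1 (0.49 and 0.31, adjusted p = 0.00135 and 0.0114). Among substrates of this protease on B cells, Fcer2a, which encodes CD23, fell most, with libraries at 1112 to 1283 TPM for B2, 5.96 to 11.1 TPM for B1 and 1.66 to 2.40 TPM for B2B1. Notch2 fell by 1.04 and by 1.54 on the log2 scale in B1 and in B2B1 (adjusted p = 6.5e-06 and 5.16e-07). Cd44, an adhesion receptor, rose by 2.64 and 2.45 (adjusted p = 3.03e-06 and 3.57e-06). That list of 5 genes also holds Adam17, the gene of another protease, which was called in no comparison. Of the 5 genes, 2 rose and 2 fell in each comparison with B2, and 2 fell in B2B1 against B1. Of all tested genes 18.0% rose and 33.9% fell in B1 and 21.0% rose and 42.0% fell in B2B1, each against B2. In B2B1 against B1, 12.1% fell. The list's medians were -0.21, -0.15 and -0.19, and those against B2 are the values of Adam17 itself.

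**Figure D4:**
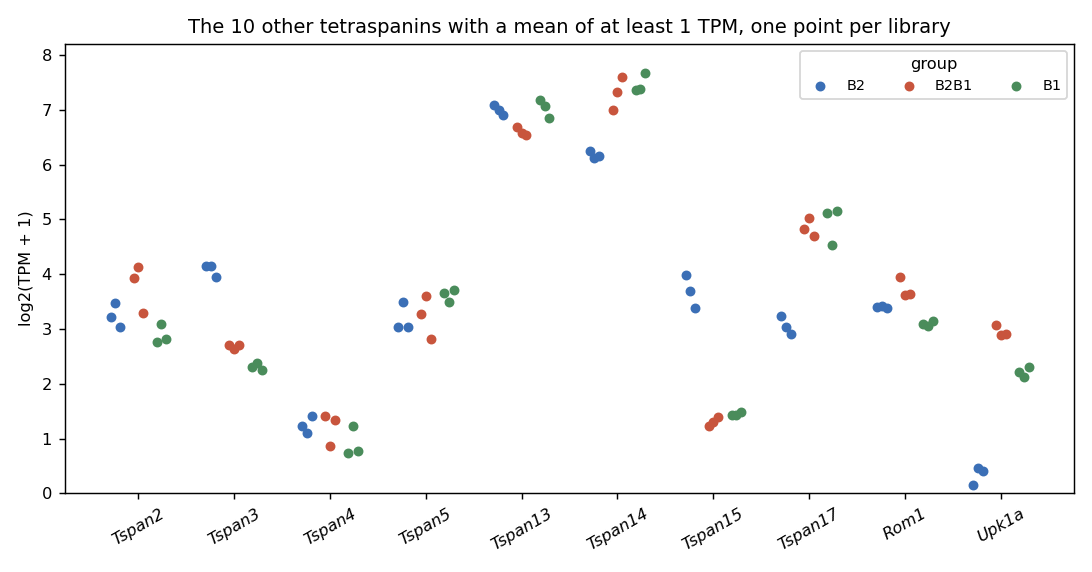
Level of the 10 other tested tetraspanins as log2(TPM + 1) on the vertical axis, 1 point per library, coloured by group. Upk1a rises from 0.270 TPM in B2 to 3.64 in B1 and 6.78 in B2B1, while Tspan15 falls from 12.1 TPM to 1.72 and 1.47.

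Among the integrin genes whose products bind tetraspanins, Itgb1 differed most from B2 and Itga3 was called in no comparison. Itgb1, the common beta chain of many such integrins, stood at 23.0 to 26.3 TPM in B2, 399 to 437 TPM in B1 and 479 to 506 TPM in B2B1. Its log2 difference was 4.05 (limma adjusted p = 1.17e-09) in B1 and 4.28 (adjusted p = 1.39e-09) in B2B1 against B2. Itga6, an alpha chain of laminin-binding integrins, was highest in B1 at 17.6 ± 1.27 TPM, beside 6.48 ± 1.01 TPM in B2B1 and 5.10 ± 0.625 TPM in B2. B2B1 was below B1 for Itga6 by a log2 difference of -1.32 (adjusted p = 0.000285). Itgb7 rose by 1.03 in B1 and 0.73 in B2B1 against B2 (adjusted p = 3e-05 and 0.000171). Itga5, at a mean of 0.0353 TPM in B2, rose by 2.68 in B1 and by 1.66 in B2B1 against B2 (adjusted p = 0.000727 and 0.00763). Itga4 stood at 189 ± 5.21 TPM in B2, 194 ± 21.1 TPM in B1 and 134 ± 3.97 TPM in B2B1, and fell in B2B1 by 0.49 against B2 (adjusted p = 0.000505) and by 0.52 against B1 (adjusted p = 0.00248). In B1 against B2 its difference was 0.03 (adjusted p = 0.746). Of the 6 genes of the list 4 rose in B1 against B2, 3 rose and 1 fell in B2B1 against B2, and 1 rose and 2 fell in B2B1 against B1. In the same order 18.0%, 21.0% and 6.93% of all tested genes rose, and 33.9%, 42.0% and 12.1% fell. The list's medians were 1.32, 0.51 and -0.41. The gene that rose in the last comparison was Itgb1, by 0.22 (adjusted p = 0.0422), a call lost under 12 of 21 alternative settings.

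CD63, CD81 and CD9 are also used as markers of exosomes, and tetraspanins sit beside MHC class II in antigen presenting cells. Of the 8 listed genes of exosome and multivesicular body formation 7 were tested. In B1 against B2 none rose and 1 fell, in B2B1 against B2 1 rose and 2 fell, and in B2B1 against B1 none rose and 1 fell, with medians of -0.035, -0.094 and -0.059. In the same order 18.0%, 21.0% and 6.93% of all tested genes rose, and 33.9%, 42.0% and 12.1% fell. The fall of Hgs in B2B1 against B1 was lost under 15 of 21 settings, and the fall of Tsg101 under 6 in B1 against B2 and 13 in B2B1 against B2. The fall of Hgs in B2B1 against B2 was lost under 2. These were median-of-ratios scaling (-0.043, limma adjusted p = 0.641) and quantile normalization (-0.079, adjusted p = 0.361). The gene that rose was Sdcbp, which encodes the adaptor syntenin, a direct partner of CD63, from 103 to 121 TPM (log2 difference 0.24, limma adjusted p = 0.00636). All 10 genes of the MHC class II list fell in both comparisons with B2, with median log2 differences of -0.98 in B1 and -1.15 in B2B1. In B2B1 against B1, 1 of them fell (median -0.13). Of all tested genes 33.9%, 42.0% and 12.1% fell in these comparisons. H2-Ob, a chain that regulates peptide loading, averaged 1149.8 ± 40.9 TPM for B2, 386 ± 49.8 TPM for B1 and 263 ± 21.5 TPM for B2B1. All 10 kept their sign under the other scalings in the comparisons with B2, but H2-Aa and H2-Eb1 in B2B1 (adjusted p = 0.117 and 0.145) and H2-Eb1 in B1 (adjusted p = 0.0654) were not called with median-of-ratios scaling, nor Cd74 in B1 (adjusted p = 0.416) with quantile normalization.

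As a description, the genes whose log2 level was most alike Cd9 over the 9 libraries were Upk1a (Pearson r 0.998), Emr1 (0.997) and Gstt3 (0.995). Gstt3, a glutathione transferase gene, stood at 0.812 TPM in B2, 13.6 TPM in B1 and 38.7 TPM in B2B1. For Cd82 they were Zfp143 (0.997), Inadl (0.994) and Tbc1d10c (0.993). Cd63 followed Cd9 with an r of 0.987. All these points share the same 9 libraries and 3 groups, so the coefficients mainly reflect the order of the group means.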

How the data were processed

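RNA-seq of mouse B cells was used as the deposited gene table of TPM. RNeasy micro columns and the TruSeq RNA kit, which does not mark strand, were used per the labels' protocols. Per the submitters' processing notes, CASAVA 1.8.2, kallisto and the genome build mm10 were used by the authors to make the TPM. Which kallisto version and transcripts were used, and how genes were summed, is not given in the sources used here. Libraries were grouped by their labels, and 0 of 36 pairs were identical.

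Genes with a mean of at least 1 TPM (11099 of 22178) were tested as log2(TPM + 1) with limma 3.58.1 in R 4.3.3 (eBayes with an intensity trend), fitting all 9 libraries at once without covariates. P-values are two-sided, with Benjamini-Hochberg adjustment within each comparison. No exact permutation test of 3 libraries against 3 can go below 0.1, so none was used. The procedure was tested on simulated data.

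The members and the gene lists were chosen with earlier results of these data known, so the lists are no independent evidence. Every member is named. Of each other list, up to 4 tested genes with the smallest adjusted p in any comparison and any tetraspanin could be named, with the 3 genes most correlated with Cd9 and with Cd82. Xist, Ddx3y, Cdk4, Tead2, R74862, Tspan32os, Gm10804, Ifitm1, Itga3, Adam17, Socs3, Ms4a1, H2-Aa, H2-Eb1, Cd74 and single cell type markers were chosen after the results were seen. Gene coordinates come from GENCODE M21 on GRCm38 and promoters from RefSeq on GRCm38.p6, in which all 9 members were found. Marker lists covered B cells, macrophages, platelets, mesothelium and stroma, plasma cells, dendritic cells, T cells, NK cells, erythroid cells, neutrophils, and mast cells and eosinophils. The 21 alternatives changed the pseudocount, the filter, the scaling, the groups fitted, the trend, the library weights, a replicate block, a covariate for library sex read from Xist, and the libraries included. Plots were made in matplotlib 3.10.9 under Python 3.11.15. The deposited signature table holds none of the members and was not used. Some genes of the lists are counted but not reported here by name.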

Additional observations from a re-analysis of the deposited data

How the results depend on the processing

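Of 27 results for the members, 19 kept their side of the threshold under all 21 alternatives, and in those that were called also their direction. Among those not called, Cd151 (-0.048 to 0.080) and Tspan31 (-0.11 to 0.014) in B2B1 against B1 took both signs. Cd151 in B2B1 against B2 changed sign with median-of-ratios scaling (0.020). So did Tsg101 in that comparison (0.053, and 0.027 with quantile normalization) and Vps4b (0.19), genes of the exosome list. The members called in B2B1 against B1 were 4. They were 3 with a pseudocount of 0.1 TPM, with library sex as a covariate, or when only those groups were fitted. Without B2B1 library 1 they were also 3. They were 5 without B1 library 2 and 6 with library weights. The count was 7 (3 higher and 4 lower) without B2B1 library 1 and B1 library 2. Each of these lay farthest from the rest of its group, B2B1 library 1 by little. Without both libraries Cd53 (-0.24, limma adjusted p = 0.0435), Tspan32 (-0.31, adjusted p = 0.0198) and Cd82 (-0.63) were also called. The cause was not tested. Over all genes, 2108 were called in B2B1 against B1, and 1129 when only those groups were fitted, 842 with library sex as a covariate, and 1341 to 2448 when leaving out 1 library at a time (1341 without B1 library 1). With the replicate number as a replicate block, 7, 8 and 4 members were called against 8, 9 and 4, and the calls of Cd151 against B2 were lost (adjusted p = 0.0596 and 0.0618). Deviations of libraries with the same number correlated at -0.058 to 0.12, and those of libraries with different numbers at -0.205 to 0.125. These ranges cannot tell whether libraries with the same number share more than that number. No other member call changed under the block. TPM give no depth, so counting error could not be separated from other spread, and low values such as Cd63 in B2 are the least certain. Markers of T cells (6.34 to 19.7 TPM), neutrophils (0 to 1.33), mast cells and eosinophils (0.037 to 6.32) and erythroid cells (0.39 to 6.36) summed to these levels over the 9 libraries.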
